A study of Homo sapiens with 6 samples.

Results

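DNA mismatch repair genes were examined in A549 cells, a human lung adenocarcinoma line, after knockdown of the chromatin-associated protein BAP18. The group holds the 5 genes MSH3, MSH6, MLH3, PMS1 and PMS2, taken by symbol from the 35474 genes of the deposited count table. Other subunits of the pathway were not analysed here. The study compared 3 siBAP18 cultures, transfected with siRNA against BAP18, with 3 siCtrl cultures, transfected with a nonspecific siRNA, and RNA was collected at 48 h. The cultures are described as biological replicates of 1 cell line. Poly(A) RNA from each was sequenced, and the sources used here do not state which of the 3 BAP18 siRNAs of the study these cultures received.

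Mismatch repair removes bases misincorporated during DNA replication and small loops left by polymerase slippage. MutS complexes bind the error, with MSH6 as the subunit specific to MutSα, which binds base mismatches and short loops, and MSH3 as the subunit specific to MutSβ, which binds longer loops. MutL complexes then act on the bound DNA. PMS2 is specific to MutLα and carries its nicking endonuclease, MLH3 is specific to MutLγ and acts in meiotic crossing over, and PMS1 is specific to MutLβ, whose part in repair is less clear. Excision by EXO1 and resynthesis by DNA polymerase δ with PCNA, RFC, RPA and LIG1 complete the repair. Loss of the pathway gives microsatellite instability in tumors.

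Total counts were 42094524 to 56548620 per library, and a count of 0 allows up to 3 counts, or 0.0514 to 0.0740 CPM (counts scaled per library total), by counting error alone. Counts of C17orf49, the gene of BAP18, were 743, 751 and 705 in siCtrl and 120, 137 and 108 in siBAP18. The log2 fold change of C17orf49 was −2.65 (standard error, SE, 0.111, Benjamini-Hochberg adjusted p = 7.31e-16 over 20776 genes, edgeR quasi-likelihood). A separate entry, RNASEK-C17orf49, shares 1163 exon bases with C17orf49 on the same strand. Its mean was 41.1 CPM in siCtrl and 34.8 CPM in siBAP18, a log2 fold change of −0.24 (adjusted p = 0.0138 in the same test). On the opposite strand, MIR497HG shares 1466 exon bases with C17orf49 and RP11-589P10.7 shares 132. In the same test MIR497HG fell by 2.57 in log2 units (adjusted p = 3.92e-13) and RP11-589P10.7 by 1.14 (adjusted p = 3.51e-05). RNASEK shares 38 bases on the same strand and rose by 0.35 (adjusted p = 0.0011). Reads of these overlaps cannot be assigned to 1 gene with certainty. All 9 epithelial and A549 markers examined, KRT8 and KRT18 among them, had a median over 1 CPM. Their sum, most of it KRT8 and KRT18, was 25955 to 27762 CPM in siCtrl and 19652 to 24212 CPM in siBAP18. At an adjusted p under 0.05 in the edgeR test, 7 of the 9 fell, against 25.1% of all genes. KRT7 rose by 0.43 in log2 units, against 24.5% of all genes that rose, and KRT19 did not pass. CDH1 fell most, by 1.32. The 3 endothelial markers PECAM1, VWF and CDH5 summed to at most 1.15 CPM. The 3 fibroblast markers COL1A1, COL1A2 and COL3A1 summed to 12.2 to 13.2 CPM in siCtrl and 9.19 to 10.3 CPM in siBAP18, nearly all of it COL1A1. CD68, the 1 leukocyte marker analysed here, was at 62.2 to 68.6 CPM in siCtrl and 115 to 158 CPM in siBAP18. It rose by 1.04 in log2 units (adjusted p = 2.63e-10 in the edgeR test). The part of these shifts in the results was not tested. The cultures are of 1 cell line, so these marker values are not read as shares of cell types. In bulk RNA, fewer cells holding an RNA and less of it per cell cannot be told apart.

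Of the 5 mismatch repair genes, 3 fell in siBAP18 cells at an adjusted p under 0.05 (MSH6, MLH3 and PMS1), none rose, and MSH3 and PMS2 did not pass. Over all genes tested, 25.1% fell and 24.5% rose by the same rule. None of the 5 also passed the study's fold threshold, an absolute log2 fold change over 1, which 3.74% of all genes passed downward and 4.72% upward. The 3 siBAP18 libraries all lay below the 3 siCtrl libraries for 4 of the 5 genes, against 29% of all genes below and 27.6% above. The median log2 fold change was −0.53 over the 5 genes and 0.00102 over all genes tested. All 5 genes passed the filter on low counts.

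MSH6 is listed at chr2:47695530-47810101 (GRCh38, as are all positions) on the + strand. The RefSeq starts used for its promoter windows lie inside this span, while the search for genes starting nearby used the listed start. MSH6 stood at 180.5, 195.6 and 192.7 CPM in siCtrl replicates 1, 2 and 3, and at 107.9, 132.5 and 99.9 CPM in siBAP18. The groups did not overlap, and siBAP18 replicate 2 was the highest of the knockdown libraries. The mean was 190 ± 8.00 CPM (SD, n = 3) in siCtrl and 113 ± 17 CPM (SD, n = 3) in siBAP18. The log2 fold change was −0.74 (SE 0.0817, 95% interval −0.91 to −0.57, Benjamini-Hochberg adjusted p = 3.72e-08, edgeR quasi-likelihood), which is a fitted change of −40.1%. MSH6 was the mismatch repair gene with the largest counts, from 4048 to 9600 per library.

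MSH3 is listed at chr5:80654648-80876460 on the + strand. It stood at 25.3, 24.2 and 23.3 CPM in siCtrl and at 22.4, 23.6 and 19.8 CPM in siBAP18. The groups overlapped, since siBAP18 replicate 2 lay above siCtrl replicate 3. The log2 fold change of MSH3 was −0.14 with a 95% interval of −0.30 to 0.02 (SE 0.0781, Benjamini-Hochberg adjusted p = 0.132, edgeR quasi-likelihood). Without siBAP18 replicate 2 it was −0.20 (adjusted p = 0.0336 by the same test), and with offsets for GC and length, which take out the trend of each library on both, it was 0.0037 (adjusted p = 0.968).

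PMS2 is listed at chr7:5973239-6009125 on the − strand. It stood at 22.0, 23.7 and 22.7 CPM in siCtrl and at 19.8, 21.3 and 21.0 CPM in siBAP18. Each siBAP18 library was below each siCtrl library in CPM, by a small margin, while in RPKM the groups overlapped (5.54 to 6.07 in siCtrl and 5.06 to 5.58 in siBAP18). The log2 fold change was −0.14 with a 95% interval of −0.29 to 0.01 (SE 0.0741, Benjamini-Hochberg adjusted p = 0.126, edgeR quasi-likelihood). The same offsets gave −0.19 and an adjusted p of 0.0178 in the same test.

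MLH3 is listed at chr14:75013764-75051532 on the − strand. It stood at 12.3, 13.6 and 12.7 CPM in siCtrl and at 9.39, 9.43 and 7.77 CPM in siBAP18. The groups did not overlap, and siBAP18 replicate 3 was the lowest library. The log2 fold change was −0.53 (SE 0.0947, 95% interval −0.72 to −0.33, Benjamini-Hochberg adjusted p = 4.74e-05, edgeR quasi-likelihood).

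PMS1 is listed at chr2:189784085-189877629 on the + strand. It stood at 7.26, 6.88 and 6.82 CPM in siCtrl and at 3.68, 4.45 and 4.44 CPM in siBAP18. The groups were well apart, with siBAP18 replicate 1 the lowest. The log2 fold change was −0.74 (SE 0.116, 95% interval −0.98 to −0.50, Benjamini-Hochberg adjusted p = 7.90e-06, edgeR quasi-likelihood). Its counts, 180 to 386 per library, were the lowest of the 5 genes, and its interval was the widest. On log2(RPKM + 1), where the pseudocount shrinks low genes, limma gave −0.37 for PMS1 and −0.30 for MLH3. With the offsets for GC and length, MLH3 stood at −0.33. Each of these values stayed under an adjusted p of 0.05.

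Levels between genes were compared per kilobase of listed exon length (RPKM). In siCtrl cells the order of the medians was MSH6 at 17.4, PMS2 at 5.72, MSH3 at 5.19, MLH3 at 1.50 and PMS1 at 1.28 RPKM, and no neighbours in this order overlapped. In siBAP18 cells MSH6 stood at 9.89, PMS2 at 5.15, MSH3 at 4.79, MLH3 at 1.13 and PMS1 at 0.785 RPKM. The order was the same, but PMS2 (5.06 to 5.58) and MSH3 (4.06 to 5.18) overlapped. The listed length takes in all exons of a gene. On the length of the main coding transcript, a choice made after seeing the data, PMS1 stood above MLH3, at 2.16 against 1.59 RPKM in siCtrl and 1.33 against 1.20 RPKM in siBAP18.

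**Figure D1:**
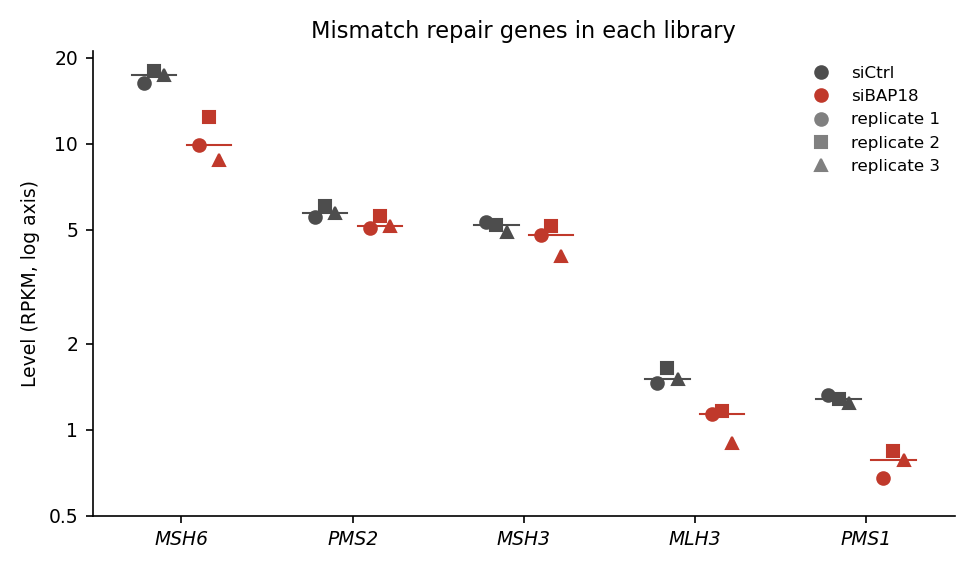
RPKM (log axis) of the 5 mismatch repair genes in each library, with siCtrl in grey, siBAP18 in red, a marker shape per replicate and a line at the group median. MSH6 was the highest gene in both groups, and MSH6, MLH3 and PMS1 had no overlap between groups while MSH3 and PMS2 did on this scale.

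Ratios of counts within a library do not depend on how libraries are scaled, and they asked whether the alternative subunits moved alike. The count ratio of MSH6 to MSH3 was 7.13, 8.08 and 8.26 in siCtrl and 4.83, 5.61 and 5.03 in siBAP18, a log2 difference of −0.60. The ratio of PMS2 to PMS1 was 3.03, 3.44 and 3.33 in siCtrl and 5.38, 4.78 and 4.74 in siBAP18, a log2 difference of 0.60. The ratio of PMS2 to MLH3 was 1.79, 1.74 and 1.79 in siCtrl and 2.11, 2.25 and 2.71 in siBAP18, a log2 difference of 0.40. None of these 3 ratios overlapped between the groups, so MSH6 was lower relative to MSH3, and MLH3 and PMS1 lower relative to PMS2, in every knockdown library. Each reached p = 0.1 in a two-sided exact permutation test, the smallest p that 3 against 3 libraries allow, and an adjusted p of 0.133 over the 4 ratios compared. The ratio of MLH3 to PMS1 was 1.69, 1.97 and 1.86 in siCtrl and 2.56, 2.12 and 1.75 in siBAP18, which overlapped (log2 difference 0.20, exact permutation p = 0.3, adjusted p = 0.3). This last difference was 0.068 without siBAP18 replicate 1 and 0.34 without siBAP18 replicate 3. Count ratios keep any trend of a library on GC and length. With the offsets for both, the log2 fold change was −0.50 for MSH6 and 0.0037 for MSH3. In the same fit it was −0.19 for PMS2, −0.33 for MLH3 and −0.50 for PMS1, so PMS2 lay closer to MLH3 and PMS1.

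AIMP2, a scaffold protein of the aminoacyl-tRNA synthetase complex, starts 120 bases from PMS2 on the opposite strand. AIMP2 rose, from 35.6, 33.9 and 31.4 CPM in siCtrl to 47.2, 41.8 and 48.1 CPM in siBAP18 (log2 fold change 0.44, SE 0.0745, Benjamini-Hochberg adjusted p = 2.31e-05, edgeR quasi-likelihood). With offsets for GC and length AIMP2 was at 0.24 (adjusted p = 0.00286). Its count ratio to PMS2 was 1.62, 1.43 and 1.38 in siCtrl and 2.39, 1.96 and 2.28 in siBAP18. ORMDL1, a regulator of sphingolipid synthesis, starts 286 bases from PMS1 on the opposite strand, with a log2 fold change of −0.27 (adjusted p = 0.0755 in the same edgeR test) and a count ratio to PMS1 of 0.627, 0.719 and 0.649 in siCtrl and 1.11, 0.858 and 0.822 in siBAP18. Both ratios were higher in every knockdown library, with an exact permutation p of 0.1 each and an adjusted p of 0.1 over the 2 ratios of neighbours, which were chosen after seeing the data.

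Exons of ORMDL1 overlap those of PMS1 by 103 bases, on opposite strands. FBXO11, a subunit of a ubiquitin ligase, overlaps exons of MSH6 by 1785 bases on the opposite strand, and stood at −0.087 in log2 fold change (Benjamini-Hochberg adjusted p = 0.400, edgeR quasi-likelihood). The library kit marks strand, but the sources used here do not say whether the counting used it, so reads of these overlaps cannot be assigned to 1 gene with certainty.

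Genes copied from PMS2 can share its reads, so PMS2 and its copies are uncertain. The table lists 11 copies, of which 10 were tested, with 2 lower, 2 higher and 6 not passed, counts near the 25.1% and 24.5% of all genes that fell and rose. PMS2CL had 284, 310 and 257 counts in siCtrl and 537, 572 and 352 counts in siBAP18, with a log2 fold change of 0.70 (Benjamini-Hochberg adjusted p = 6.48e-06, edgeR quasi-likelihood). PMS2P3 rose by 0.51 in log2 units in the same test (adjusted p = 3.40e-04). The offsets took PMS2P3 to 0.30, and on log2(RPKM + 1) PMS2CL was at 0.46. PMS2P1 fell by 0.19 (adjusted p = 0.0231) and PMS2P7 by 0.30 (adjusted p = 0.0169), and neither held in every fit. PMS2P1 was at −0.15 without siCtrl replicate 2, −0.21 without siCtrl replicate 3 and −0.18 without siBAP18 replicate 1, and PMS2P7 at −0.21 without siCtrl replicate 2 or without siBAP18 replicate 1, with adjusted p from 0.0537 to 0.159 in edgeR's test. With the offsets PMS2P1 was at −0.37 and PMS2P7 at −0.50. In limma PMS2P7 did not pass on log2(RPKM + 1) (−0.27, adjusted p = 0.0618) or on log2(RPKM + 0.1) (−0.30, adjusted p = 0.0635). PMS2P1 passed in both.

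**Figure D2:**
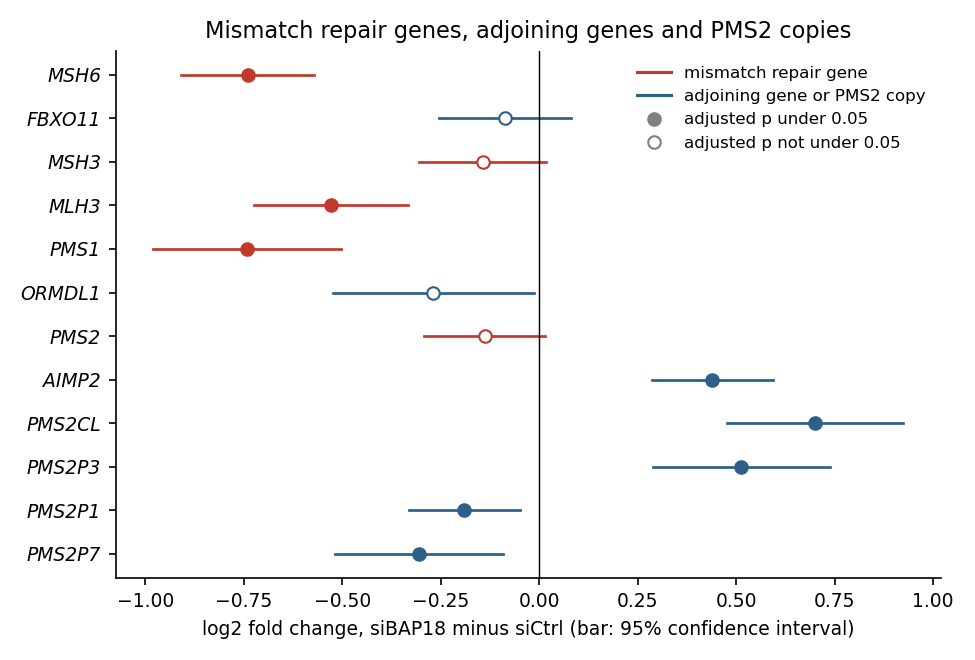
Log2 fold change of siBAP18 against siCtrl with its 95% interval for the 5 mismatch repair genes (red) and for adjoining genes and copies of PMS2 (blue), filled where the adjusted p was under 0.05. MSH6 lay at −0.74 beside FBXO11 at −0.087, and PMS2 at −0.14 beside AIMP2 at 0.44.

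**Figure D3:**
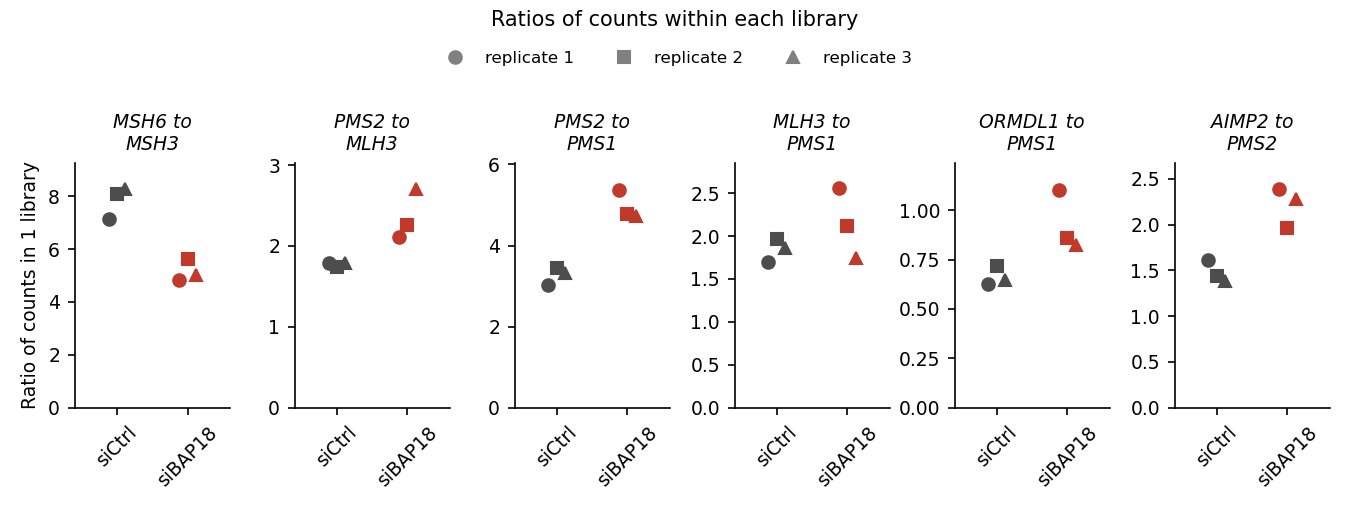
Ratio of counts of 2 genes within each of the 6 libraries, 1 panel per ratio with its own axis from 0, with siCtrl in grey and siBAP18 in red and a marker shape per replicate. The groups did not overlap in any panel except MLH3 to PMS1.

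Promoter windows of 250 bases before to 50 after each RefSeq start (GRCh38.p14) were searched on both strands, 9 windows for the 5 genes. The E2F words searched were TTTCCCGC, TTTCGCGC, TTTGCCGC and TTTGGCGC. They were found in windows of MSH3, MSH6 and PMS2 and in none of MLH3 or PMS1. Over all genes they were found in 3.31% of 35116 windows and for 3.99% of 27305 genes. E2F factors are known as regulators of genes used in S phase, and a word does not show the direction of regulation. Windows of MSH6 and PMS2 are shown because MSH6 fell and PMS2 did not pass, with the E2F words in capitals.
MSH6, chr2:47782895-47783194, + strand: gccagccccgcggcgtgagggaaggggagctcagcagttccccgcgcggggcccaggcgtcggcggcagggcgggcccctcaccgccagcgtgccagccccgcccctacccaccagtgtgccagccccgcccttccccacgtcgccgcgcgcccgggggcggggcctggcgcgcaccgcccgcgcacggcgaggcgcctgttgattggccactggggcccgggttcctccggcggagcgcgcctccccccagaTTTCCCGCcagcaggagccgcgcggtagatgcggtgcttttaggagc
PMS2, chr7:6009057-6009356, − strand: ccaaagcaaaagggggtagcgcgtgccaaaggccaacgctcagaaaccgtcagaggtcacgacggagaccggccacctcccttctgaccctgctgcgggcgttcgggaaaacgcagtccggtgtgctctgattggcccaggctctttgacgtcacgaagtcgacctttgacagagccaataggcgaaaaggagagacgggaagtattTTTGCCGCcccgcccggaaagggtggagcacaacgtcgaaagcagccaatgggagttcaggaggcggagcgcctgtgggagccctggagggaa

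The MSH3 window holds overlapping words on opposite strands. In the MSH6 window shown the word begins 3 bases after the start, and in the PMS2 window shown 43 bases before it. The other windows of MSH6 hold no E2F word. The other PMS2 window overlaps the one shown and holds the same word. Transcripts of AIMP2 begin inside the PMS2 window (3 of its 3 coding transcripts). The letters CCAAT, in either direction, lay in windows of MSH6, PMS1 and PMS2, against 34.6% of all windows, and the GC box GGGCGG in windows of MSH3, MSH6, PMS1 and PMS2, against 45% of all windows. The word TTTGAA of the cell cycle homology region was in none of the 9 windows, against 15.2% of all windows. The shares of CCAAT, the GC box and TTTGAA are per window, so a gene with several windows has more chances of a match. A match is a description of letters only.

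The 3′ UTR of the main MLH3 transcript, 3318 bases long, holds 1 copy of ACTCAAC, the letters that pair with guide bases 2 to 8 of the siRNA named siBAP18#3. It lies at chr14:75016044-75016050 on the − strand, in exon 13 of 13, and is shown with its flanks because MLH3 is among the 3 genes that fell.
MLH3 3′ UTR, word in capitals: ggttaataggACTCAACagactaaaat
Of the 3′ UTRs of 18769 genes, 6.53% hold this word, and those of MSH3, MSH6, PMS1 and PMS2 do not. The share is over 3′ UTRs of at least 50 bases and is not matched for length. A longer 3′ UTR has more chances of a match. Those of MSH6, PMS1, MSH3 and PMS2 have 3241, 1172, 598 and 160 bases. Words of the other BAP18 siRNAs were not searched, and the part of the word in the fall of MLH3 was not tested.

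Of 15 genes of excision and resynthesis, 12 fell, POLD4 rose, and RPA2 and POLD2 did not pass, against 25.1% of all genes that fell and 24.5% that rose. The median log2 fold change of the list was −0.56. EXO1, the exonuclease of mismatch repair, was the one gene of the list past the fold threshold, which 3.74% of all genes passed downward. EXO1 stood at 15.6, 14.1 and 14.5 CPM in siCtrl and at 4.52, 4.35 and 4.49 CPM in siBAP18, with a log2 fold change of −1.73 (SE 0.0963, Benjamini-Hochberg adjusted p = 1.79e-13, edgeR quasi-likelihood). PCNA, the sliding clamp, was at 107.1, 104.9 and 103.2 CPM in siCtrl and 60.3, 55.8 and 57.5 CPM in siBAP18 and fell by 0.86 in log2 units (SE 0.0660, adjusted p = 6.49e-11). The knockdown libraries of EXO1 and PCNA all lay below the controls, and on log2(RPKM + 1) EXO1 was at −1.13. LIG1, which seals the nick, was at 148.1, 148.2 and 154.8 CPM in siCtrl and 91.4, 83.7 and 100.6 CPM in siBAP18 and fell by 0.71 (SE 0.0710, adjusted p = 7.01e-09). POLD3, a subunit of DNA polymerase δ, was at 27.7, 27.4 and 28.5 CPM in siCtrl and 17.1, 18.1 and 15.7 CPM in siBAP18 and fell by 0.71 (SE 0.0759, adjusted p = 1.99e-08). LIG1 and POLD3 did not overlap between the groups either.

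All 5 subunits of the clamp loader RFC fell. RFC3 fell by 0.84, RFC4 by 0.79, RFC5 by 0.61, RFC1 by 0.43 and RFC2 by 0.32 in log2 units. With offsets for GC and length RFC1 was at −0.25 and RFC2 at −0.53. The catalytic subunit POLD1 fell by 0.56. Among the single-strand binding subunits, RPA1 fell by 0.23 and RPA3 by 0.21, while RPA2 was at −0.17 (Benjamini-Hochberg adjusted p = 0.0516, edgeR quasi-likelihood). RPA3 no longer passed without siCtrl replicate 1 (−0.18) or 3 (−0.22), or without siBAP18 replicate 1 (−0.18) or 2 (−0.16), with adjusted p from 0.0667 to 0.125, and RPA2 passed without siBAP18 replicate 3 (−0.17, adjusted p = 0.0365). POLD4, a small subunit of DNA polymerase δ, was at 50.1, 47.7 and 48.7 CPM in siCtrl and 56.9, 51.7 and 68.8 CPM in siBAP18. It rose by 0.27 (SE 0.0821, adjusted p = 0.00711) with no overlap between groups, and offsets for GC and length took it to 0.079 (adjusted p = 0.321). POLD2 was at 0.011 (adjusted p = 0.912). With the offsets RPA2 was at −0.34 (adjusted p = 6.77e-05) and POLD2 at −0.15 (adjusted p = 0.0345), both past the test. RPA2 also passed in limma on log2(RPKM + 1) (−0.15, adjusted p = 0.0479) and on log2(RPKM + 0.1) (−0.17, adjusted p = 0.0494).

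Of 11 factors tied to mismatches or damaged bases, 6 fell, 2 rose and 3 did not pass, against 25.1% of all genes that fell and 24.5% that rose. The median log2 fold change of the list was −0.28. MCM8, a helicase that partners MCM9, stood at 49.3, 51.9 and 51.2 CPM in siCtrl and 19.6, 23.1 and 21.3 CPM in siBAP18. Its log2 fold change was −1.25 (SE 0.0741, Benjamini-Hochberg adjusted p = 5.54e-13, edgeR quasi-likelihood), and it was the one gene of this list past the fold threshold. MCM9 was at 12.1, 12.1 and 10.6 CPM in siCtrl and 6.78, 7.79 and 5.87 CPM in siBAP18 and fell by 0.76 (SE 0.105, adjusted p = 1.38e-06). Neither helicase overlapped between the groups, and MCM9 was at −0.42 with offsets for GC and length and at −0.32 on log2(RPKM + 1). MBD4, a glycosylase for G:T mismatches, was at 21.7, 22.1 and 20.9 CPM in siCtrl and 13.7, 15.4 and 13.3 CPM in siBAP18 and fell by 0.61 (SE 0.0803, adjusted p = 6.67e-07). SETD2, the enzyme that trimethylates histone H3 on lysine 36, was at 72.0, 72.1 and 71.1 CPM in siCtrl and 54.1, 61.2 and 51.6 CPM in siBAP18 and fell by 0.37 (SE 0.0712, adjusted p = 1.24e-04). Both were lower in every knockdown library than in any control, and the offsets took SETD2 to −0.22. UNG fell by 0.28 and HMGB1 by 0.31, and with the offsets UNG was at −0.47 and HMGB1 at 0.0065 (adjusted p = 0.934).

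MGMT, which removes alkyl groups from guanine, stood at 7.24, 5.65 and 6.80 CPM in siCtrl and 10.4, 8.36 and 11.5 CPM in siBAP18, and rose by 0.61 in log2 units (SE 0.118, Benjamini-Hochberg adjusted p = 1.14e-04, edgeR quasi-likelihood). MUTYH, which removes adenine paired with oxidized guanine, was at 7.39, 6.94 and 8.47 CPM in siCtrl and 9.46, 8.85 and 12.0 CPM in siBAP18 and rose by 0.40 (SE 0.113, adjusted p = 0.00429). The groups of both genes did not overlap, in the direction opposite to MSH6, MLH3 and PMS1, and the offsets took MUTYH to 0.26. FAN1 was at −0.14, TDG at 0.070 and SMUG1 at 0.098, none past the test. FAN1 passed without siBAP18 replicate 2 (−0.25, adjusted p = 0.00539) and with the offsets (−0.16, adjusted p = 0.0493). TDG passed as higher with the offsets (0.32, adjusted p = 3.20e-04).

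**Figure D4:**
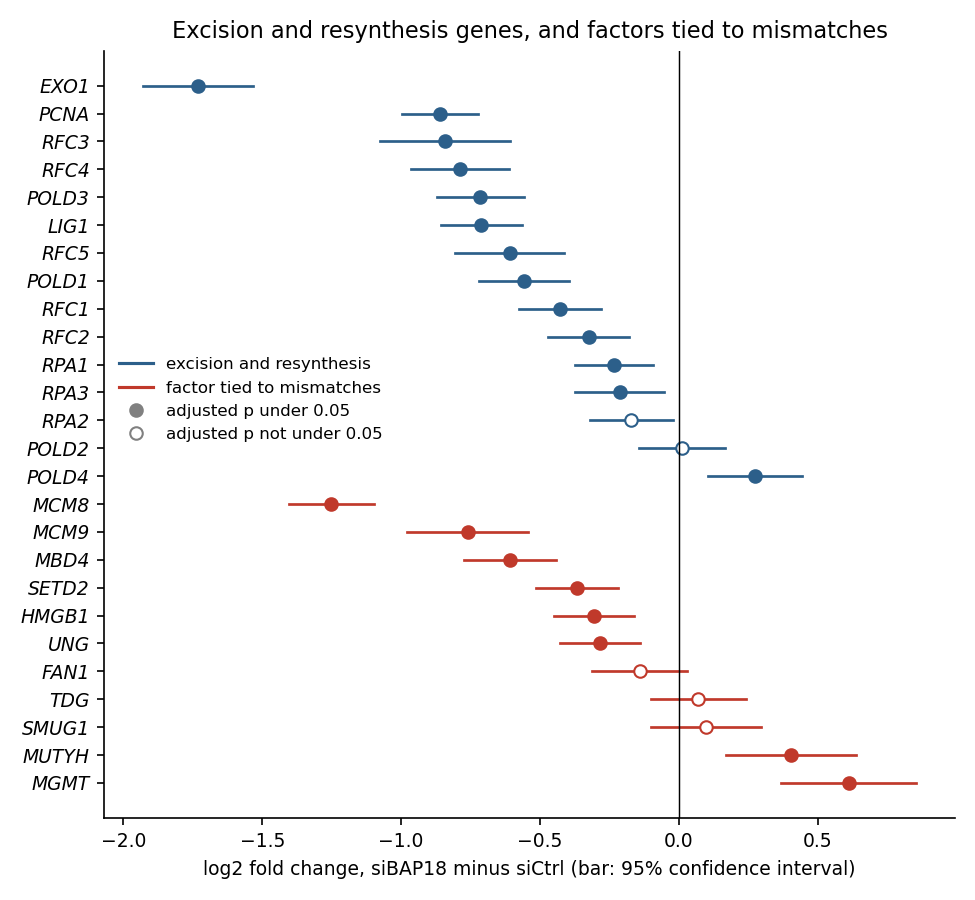
Log2 fold change of siBAP18 against siCtrl with its 95% interval for the 15 genes of excision and resynthesis (blue) and the 11 factors tied to mismatches (red), filled where the adjusted p was under 0.05. EXO1 at −1.73 and MCM8 at −1.25 were the lowest of their lists, and POLD4, MUTYH and MGMT were the genes that rose.

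Of 12 replication licensing and S phase genes examined, 12 fell, against 25.1% of all genes, and 5 also passed the fold threshold, against 3.74%. The 12 were MCM2, MCM3, MCM4, MCM5, MCM6, MCM7, CDC6, CDT1, CCNE2, TYMS, RRM2 and UHRF1. Their median log2 fold change was −0.96. Their part in the lower MSH6, MLH3 and PMS1 was not tested. An E2F word was found for 8 of the 9 licensing and S phase genes with a window, and for 3 of the 5 mismatch repair genes. It was found for 4 of 12 excision genes (EXO1, PCNA, RFC3 and LIG1) and 2 of 10 factors (MCM8 and UNG), against 3.99% of 27305 genes. E2F factors act on S phase genes, so the share in a list chosen as such is a description only.

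Of the meiotic MutS homologues, MSH5 stood at 7.46, 7.42 and 7.49 CPM in siCtrl and 5.66, 5.65 and 5.90 CPM in siBAP18. It fell by 0.38 in log2 units (SE 0.103, Benjamini-Hochberg adjusted p = 0.00327, edgeR quasi-likelihood). On log2(RPKM + 1) MSH5 was at −0.19. MSH4 had 2 counts in siCtrl replicate 1 and 0 in the other 5 libraries, so no comparison was made at this depth.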

How the data were processed

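RNA-seq of 6 A549 cultures was used, 3 siCtrl and 3 siBAP18, grouped by title. The authors deposited raw counts per gene and RPKM on the listed exon length, and the labels name hg38 and GRCm38 as builds. Of the 35474 genes listed, 24555 matched GENCODE 29 (GRCh38) by symbol. Others were matched by position, where the overlap was over 0.5 of both spans. Aligner, counting program and use of strand are not given in the sources used here. The 20776 genes kept by filterByExpr were compared between siBAP18 and siCtrl after TMM scaling, in edgeR 4.0.16 (R 4.3.3) quasi-likelihood tests and Benjamini-Hochberg adjustment over all genes. CPM are relative to the TMM-scaled total, and the standard error is the log2 fold change over the square root of F. The members and lists were chosen with earlier results of these data known.

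Named genes were C17orf49, genes overlapping its exons, the 5 members, copies of PMS2, MSH4 and MSH5. Also named were genes starting within 1000 bases of a member on the opposite strand or overlapping its exons. The rest were 2 partner lists, with the 4 smallest adjusted p in each direction in full, and per member the 2 genes most like it. Alternatives were other scalings, DESeq2 1.42.0, filters, limma 3.58.1 on log2(RPKM + 1) or log2(RPKM + 0.1) with mean RPKM of at least 0.5, GC and length offsets (99.2% of genes had a GC value), a replicate block and each library left out. Replicate numbers did not pair libraries, and no pair of libraries in a group was a copy. Chi-square per degree of freedom was 3.99 to 4.62 between siCtrl libraries and 10.2 to 23.8 between siBAP18 libraries. In simulated counts the edgeR steps recovered 200 of 200 changed genes. The simulation gave all genes and both groups the same dispersion and used changes of at least 1 log2 unit. It does not show how smaller changes or the wider spread of the siBAP18 libraries are handled. A protein comparison was not run. One gene that the naming rule reaches is not reported here.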

Additional observations from a re-analysis of the deposited data

How the results depend on the processing

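MSH6, MLH3 and PMS1 kept their direction and an adjusted p under 0.05 in every alternative run, with each library left out (MSH6 −0.87 to −0.65, MLH3 −0.57 to −0.44, PMS1 −0.79 to −0.65) and in the others (MSH6 −0.76 to −0.50, MLH3 −0.54 to −0.30, PMS1 −0.76 to −0.37). With each library left out, MSH3 lay between −0.20 and −0.077 and PMS2 between −0.17 and −0.11, and the number of the 5 genes that fell was 3 to 4. The offsets for GC and length reversed MSH3 (0.0037), FBXO11 (0.16, adjusted p = 0.0343), ORMDL1 (0.052), POLD2 (−0.15) and HMGB1 (0.0065), took PMS2 (−0.19), RPA2 (−0.34, adjusted p = 6.77e-05), FAN1 (−0.16) and TDG (0.32, adjusted p = 3.20e-04) past the threshold, as well as POLD2 in its new direction (adjusted p = 0.0345), and gave 14 excision genes lower, 0 higher, and 3 factors higher. The cause was not tested. POLD2 also reversed with no filter (−0.0042) and lay between −0.058 and 0.084 with each library left out, below 0 without siCtrl replicate 2 or siBAP18 replicate 3. FBXO11 lay between −0.18 and 0.024, above 0 without siBAP18 replicate 3. It passed without siBAP18 replicate 2 (adjusted p = 0.0340). A fit with the replicate block, with a correlation of same-numbered libraries of −0.017 to 0.051, gave −0.75 for MSH6, −0.53 for MLH3, −0.74 for PMS1, −0.15 for MSH3 and −0.14 for PMS2. It changed the call of RPA2 alone among the named genes (adjusted p = 0.0356). On the length of the main transcript the median RPKM in siCtrl and siBAP18 was 25.6 and 14.5 for MSH6, 7.89 and 7.10 for PMS2, 5.98 and 5.51 for MSH3, and 2.16 and 1.33 for PMS1. Depth limited PMS1 most, and MSH4 could not be compared. Adjusted p values are from edgeR.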

Other observations

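Likeness to each mismatch repair gene was ranked by Pearson r of log2 CPM over the 6 libraries, among 9928 or 9929 genes whose average log2 CPM reached 3. The points share their libraries and fall into the 2 groups, and r is given as a description. With 6 points and this many genes a high r is easily reached, and r ignores the size of a change. TGOLN2 was at −0.30 in log2 fold change against −0.74 for MSH6, while ALMS1 was at −0.77 against −0.74 for PMS1. The genes of highest r were TGOLN2 (0.9998) and GPD2 (0.999) for MSH6, and ARMC8 (0.9932) and ZNF225 (0.9877) for MSH3. For MLH3 they were CNKSR2 (0.9995) and CTSS (0.9979), and for PMS1 ALMS1 (0.9975) and RP11-15B17.1 (0.9965). For PMS2 they were CCDC136 (0.991) and TRMT5 (0.9904).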
